A study of Rattus norvegicus with 6 samples.

Results

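The transcription factors of the epithelial-to-mesenchymal transition (EMT) were compared between 2 clonal cell strains of a rat bile duct cancer model. The members were set by name as Snai1, Snai2, Twist1, Twist2, Zeb1, Zeb2, Prrx1, Tcf4, Foxc2 and Tcf21. Of these 10 genes 9 were measured, by 18 probe sets among the 31099 of the array, and Snai2 was not analysed here. They are 9 of 14217 genes tested. BDEsp-TDECC, here TDECC, is a cholangiocarcinoma cell strain and BDEsp-TDESM, here TDESM, a cancer-associated fibroblastic strain that the labels describe by its Acta2 overexpression. Both were derived from tumours that grew after BDEsp cells, rat cholangiocytes (bile duct lining cells) that had transformed spontaneously, were placed in the bile duct of young adult male Fischer 344 rats. Each strain is 1 clone and was measured on 3 arrays. For all 6 arrays alike the labels give a 3-dimensional organotypic co-culture in collagen type I gel and name the TGF-beta inhibitors SB 431542 and LY2157299, without saying which received them, and treated and untreated cells were not compared.

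EMT is the change by which epithelial cells lose their junctions and take on a motile, matrix-producing form. Snail (Snai1, Snai2) and Zeb (Zeb1, Zeb2) proteins are zinc finger repressors that bind E-boxes in promoters of epithelial genes such as Cdh1, which encodes E-cadherin. Twist proteins, Tcf21 and the E protein Tcf4 (also called E2-2) are basic helix-loop-helix factors that bind E-boxes as dimers, Prrx1 is a homeobox factor and Foxc2 a forkhead factor. The same factors are also part of the normal programme of fibroblasts and other mesenchymal cells, so their RNA in a fibroblastic strain does not by itself mark a transition.

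The values are log2 signals processed with RMA, a method that corrects background, gives all arrays the same distribution and summarises the probes of a probe set. Array medians lay between 5.80 and 5.86. Over all genes, pairs of arrays correlated at 0.968 to 0.975 within TDECC, at 0.995 to 0.998 within TDESM and at 0.787 to 0.823 between strains. All 6 epithelial markers examined were lower and all 8 fibroblast markers higher in TDESM. Krt19 stood at 14.33 ± 0.19 (SD, n = 3) in TDECC and 3.58 ± 0.17 in TDESM, and Col1a2 at 3.69 ± 0.51 and 14.41 ± 0.05. Acta2, smooth muscle actin and the gene in the TDESM label, stood at 6.61 ± 0.95 and 11.6 ± 0.07. Of 19 marker genes of endothelium, leukocytes, hepatocytes, muscle and neural cells, 1 was higher and 2 were lower in TDESM. The higher one was the muscle gene Des, and the lower ones Pecam1 and Serpina1. Over all genes 22.1% were called higher and 20.6% lower, by the test given below. Mean levels of the 19 markers ran from 3.54 to 6.88 in TDECC and from 3.43 to 6.35, the mean of Des, in TDESM. The files carry no detection calls, so this range serves below as a rough guide to dim signal, although probe sets differ in brightness. No filter on dim genes was applied. Whether the 3 arrays of a strain are 3 cultures is not given, so the p-values here are set against array-to-array spread that could be technical alone. In such bulk RNA, fewer cells with a transcript and less of it per cell cannot be told apart.

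Of the 9 EMT factors measured, 7 were higher in TDESM, 0 were lower, and Foxc2 and Tcf21 did not pass (limma, adjusted p under 0.05 over all genes). Among all 14217 genes 22.1% were called higher and 42.7% were called in either direction. The arrays of the strains did not overlap for the same 7 factors, and 53.6% of all genes had no overlap (27.3% with TDESM higher). The median difference of the 9 factors was 2.77 on the log2 scale, against 0.0033 over all genes. All 18 probe sets read between 2.73 and 6.61 on every TDECC array, which is under the highest mean of the markers of other cells. That highest mean was Snap25 alone, at 6.88 ± 2.48 (SD, n = 3); the next was Ttr at 6.18, and one probe set of Foxc2 on every TDECC array, another on 1 and Zeb1 on 1 read above it. Against such dim TDECC signals a log2 difference is one of signals, may understate the change in transcript and is not turned into a fold here. On TDESM arrays 10 probe sets, from 6 of the factors, read above that range. At the level of probe sets, 14 of 18 were higher and 0 lower, where 17.9% of all 31042 probe sets tested were higher, 19% lower and 36.9% called in either direction. The strains did not overlap for the same 14, as for 48.9% of all probe sets (23.2% with TDESM higher). The 4 that did not pass were the 3 of Foxc2 and the 1 of Tcf21.

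**Figure D1:**
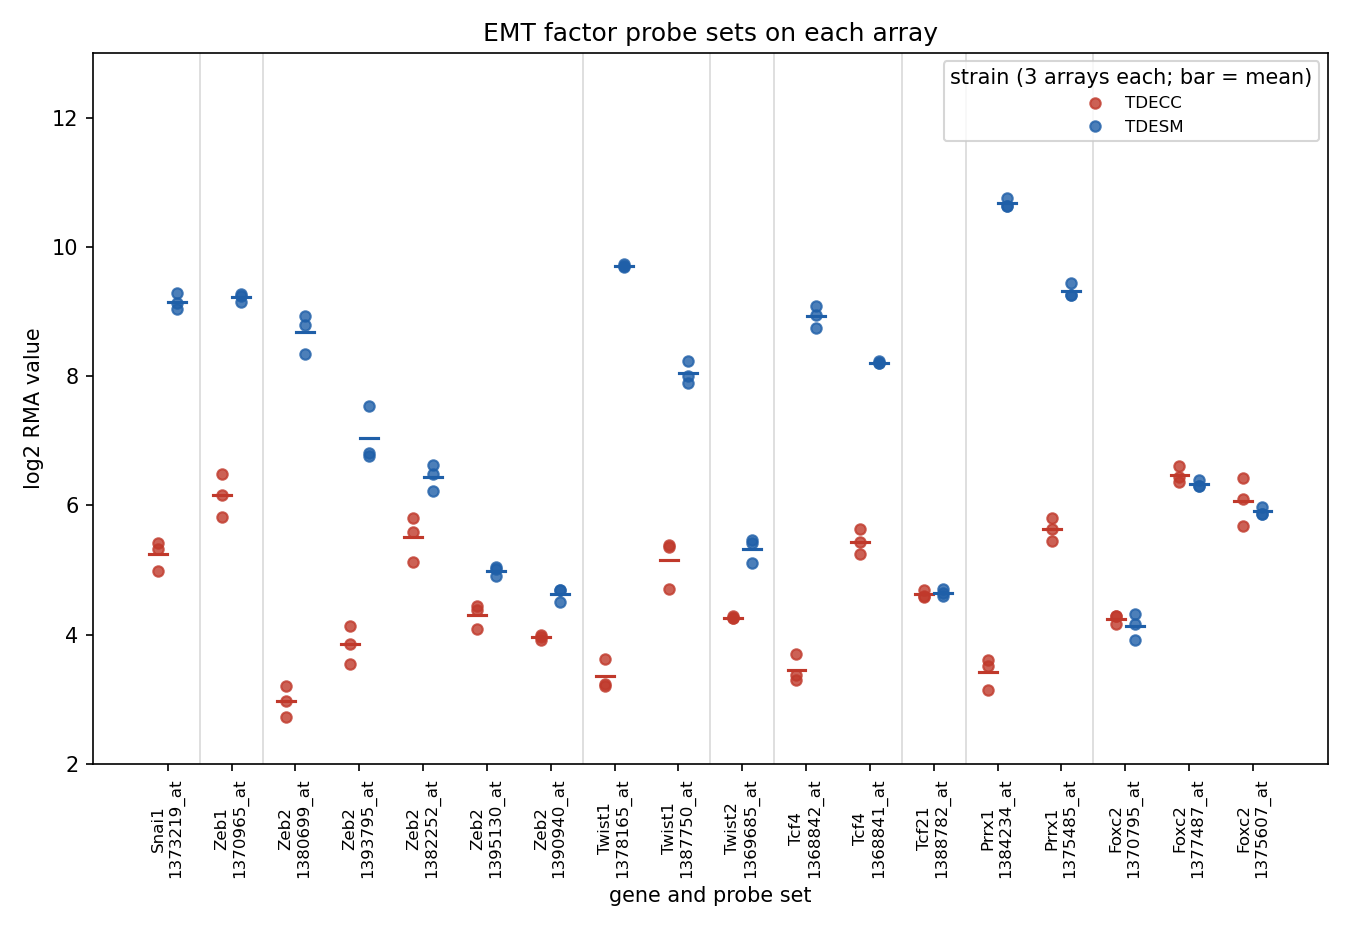
Log2 RMA value (vertical axis) of each of the 18 probe sets of the 9 EMT factors (horizontal axis) on each of 3 TDECC and 3 TDESM arrays, with a bar at each strain's mean. The strains are separate for 14 probe sets and overlap for those of Foxc2 and Tcf21.

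Snai1 encodes Snail, a direct repressor of Cdh1. It read 5.32, 4.98 and 5.42 on the TDECC arrays and 9.04, 9.29 and 9.13 on the TDESM arrays, by its only probe set. Every TDESM array was above every TDECC array by more than the whole spread within a strain. TDESM exceeded TDECC by 3.91 on the log2 scale (SE 0.16, limma adjusted p = 2.01e-06). It was the largest signal difference among the factors when the brightest probe set, by mean over the 6 arrays, stood for each gene. An exact two-sided permutation test of any single gene cannot go below p = 0.1 with 3 against 3 arrays.

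The region around the Snai1 start is shown because Snail proteins are known to bind their own promoter. The hexamer CAGGTG or CACCTG, the E-box that Snail and Zeb proteins prefer, was searched on both strands in windows of 250 bases before to 50 bases after the start (RefSeq, GRCr8). These letters are each other's reverse complement, and both are cases of the general E-box CANNTG. Shown are the 250 bases before the start and the first 10 after it. Capitals mark the match, whose first base lies at -142 from the start.
Snai1, GRCr8 chr3:176667226-176667485, strand +: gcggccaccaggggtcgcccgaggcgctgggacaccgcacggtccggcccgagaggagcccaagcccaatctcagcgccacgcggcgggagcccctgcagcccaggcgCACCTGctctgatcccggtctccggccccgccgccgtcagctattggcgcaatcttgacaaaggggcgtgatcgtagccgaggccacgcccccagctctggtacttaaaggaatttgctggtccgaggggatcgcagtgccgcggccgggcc
Among the 8 factors with a window, 2 held the hexamer: Snai1 at that place and Zeb1 at -95 and at 38. That is 25% of the factors, beside 18.9% of the 13242 array genes with a window. A match is a run of letters and no evidence of binding, and factor binding was not measured.

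Zeb1 and Zeb2, which repress many junction and polarity genes, were both higher in TDESM, but the 5 probe sets of Zeb2 differed widely. Zeb1 read 5.82, 6.16 and 6.49 in TDECC and 9.24, 9.27 and 9.14 in TDESM. The TDESM arrays lay close together and well above the spread of TDECC. The log2 difference of Zeb1 was 3.06 (SE 0.18, limma adjusted p = 1.53e-05).

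By the brightest of its probe sets, 1382252_at, Zeb2 read 5.59, 5.81 and 5.13 in TDECC and 6.62, 6.49 and 6.22 in TDESM. These values came close without overlapping, and TDESM was higher by 0.93 on the log2 scale (SE 0.21, limma adjusted p = 0.00928). Probe set 1380699_at of Zeb2 read 3.20, 2.98 and 2.73 in TDECC and 8.93, 8.79 and 8.34 in TDESM. The gap there was 5.72 (SE 0.20), from TDECC values under the lowest marker of other cells. A further probe set, 1393795_at, differed by 3.19 (SE 0.25), while 1395130_at and 1390940_at differed by 0.68 and 0.67, both with TDESM means under 5. All 5 passed limma over all probe sets, with adjusted p from 1.49e-06 to 0.0101, and with their mean Zeb2 differed by 2.24 (SE 0.15). The sign of Zeb2 therefore held over its probe sets, but its size ranged from 0.67 to 5.72.

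Twist1 and Twist2 encode closely related helix-loop-helix factors of mesoderm and dermis. By its brightest probe set Twist1 read 5.35, 5.39 and 4.71 in TDECC and 8.0, 7.90 and 8.24 in TDESM. The strains were far apart even though TDECC replicate 3 was low, and this was the largest TDECC spread among the factors (SD 0.38). The log2 difference was 2.90 (SE 0.21, limma adjusted p = 4.50e-05). The other Twist1 probe set, 1378165_at, read 3.21, 3.62 and 3.24 against 9.70, 9.73 and 9.69, a difference of 6.35 (SE 0.14), with a TDECC mean again under the lowest marker of other cells.

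Twist2 read 4.28, 4.26 and 4.25 in TDECC and 5.41, 5.11 and 5.47 in TDESM. All 3 TDESM arrays were higher, but they stayed within the range of the markers of other cells. The difference was 1.07 (SE 0.13, limma adjusted p = 6.87e-04). Whether the differences of Twist1 and Twist2 are unlike was not tested, since different probe sets need not respond alike.

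Tcf4, an E protein that pairs with tissue-specific helix-loop-helix factors, read 5.44, 5.64 and 5.24 in TDECC and 8.23, 8.20 and 8.20 in TDESM. The TDESM arrays were nearly identical and all above TDECC. The difference was 2.77 (SE 0.14, limma adjusted p = 5.92e-06). Its other probe set, 1368842_at, differed by 5.47 (SE 0.16), from 3.46 ± 0.22 (SD, n = 3), likewise under the lowest marker of other cells, to 8.93 ± 0.17.

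Tcf21, a helix-loop-helix factor of fibroblast and stellate cell lineages, read 4.58, 4.60 and 4.69 in TDECC and 4.70, 4.64 and 4.60 in TDESM. The arrays of both strains intermingled at a dim level. The difference was 0.02 (95% interval -0.24 to 0.28, limma adjusted p = 0.890).

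Prrx1, a homeobox factor of limb and craniofacial mesenchyme that is also expressed in fibroblasts, was higher in TDESM by both probe sets. By the brighter one it read 5.80, 5.63 and 5.45 in TDECC and 9.26, 9.25 and 9.44 in TDESM. The groups were separate with little spread, and the difference was 3.69 (SE 0.14, limma adjusted p = 1.54e-06). Probe set 1384234_at read 3.60, 3.14 and 3.51 in TDECC and 10.75, 10.64 and 10.64 in TDESM. Its signal difference was 7.26 (SE 0.15), from a TDECC mean of 3.42 that was under the lowest marker of other cells.

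Foxc2, a forkhead factor of mesenchyme and lymphatic vessels, read 6.36, 6.44 and 6.61 in TDECC and 6.30, 6.39 and 6.30 in TDESM. The groups overlapped, and the difference was -0.14 (95% interval -0.43 to 0.15, limma adjusted p = 0.404). Its other probe sets differed by -0.11 and -0.16, with adjusted p of 0.600 and 0.578 over all probe sets, and their groups overlapped too. Foxc1, a close relative, stood at 5.45 ± 0.27 (SD, n = 3) in TDECC and 5.73 ± 0.08 in TDESM and did not pass either. It was named here after its values were seen.

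**Figure D2:**
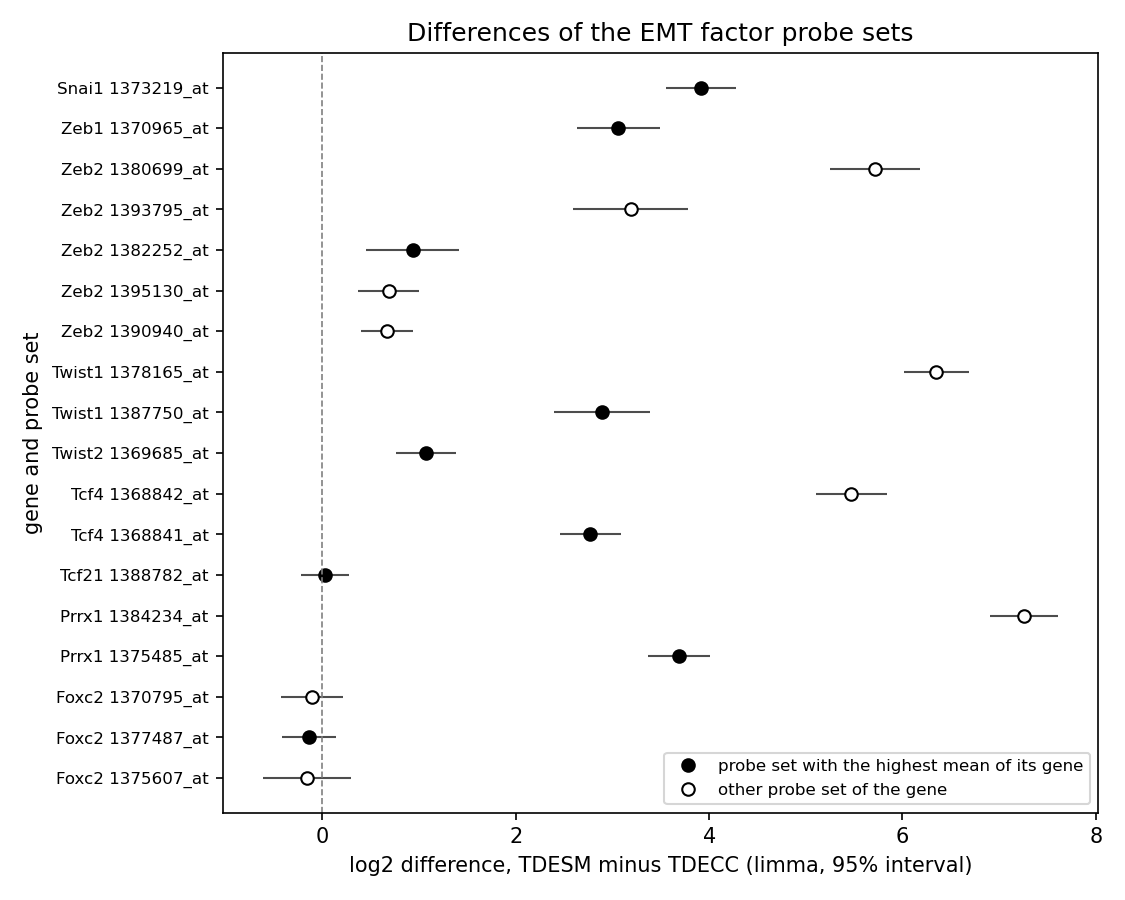
Log2 difference, TDESM minus TDECC (horizontal axis), of each of the 18 probe sets with its 95% interval from limma; filled points are the probe set with the highest mean of its gene. The intervals of 14 probe sets lie above 0, and Zeb2, Twist1, Tcf4 and Prrx1 each have an open point to the right of the filled one.

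For the 4 factors that were called and had several probe sets, the largest difference stood in each case on the probe set with the lowest TDECC mean, not on that with the highest mean over all arrays. For Twist1 the probe sets differed by 2.90 and 6.35, for Tcf4 by 2.77 and 5.47, and for Prrx1 by 3.69 and 7.26. With the mean of all probe sets in place of the brightest, the differences were 4.62 for Twist1, 4.12 for Tcf4 and 5.48 for Prrx1. The sign was the same for every probe set of these 4 genes in the deposited values, and only the size depended on the choice.

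The direction is relative to the bulk of genes on arrays scaled alike. Centring on the poly-A control transcripts assumes that they were added to every sample in equal amounts, which was not tested. Centred on them, the median gene moved by -1.22. Snai1, Zeb1, Twist1, Tcf4 and Prrx1 stayed higher in TDESM, by 2.69, 1.84, 1.68, 1.55 and 2.47. Under that centring Twist2 stood at -0.15 and Zeb2 at -0.29, neither past the threshold, while Foxc2 and Tcf21 were called lower, at -1.36 and -1.20. Probe set 1380699_at of Zeb2 was still 4.50 higher. Centred on 12 housekeeping genes instead, the median gene moved by 0.19 and the same 7 factors were called higher. Under poly-A centring each gene had the same SE of 0.37, so those p-values follow the size of the difference alone.

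**Figure D3:**
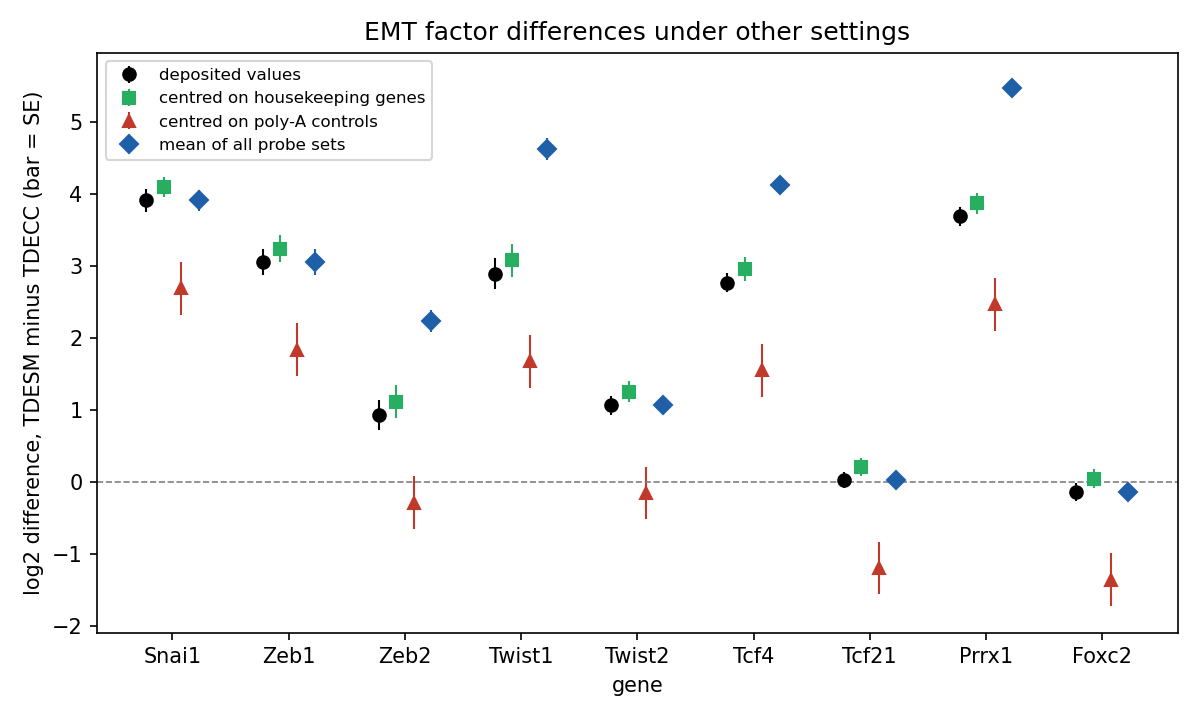
Log2 difference, TDESM minus TDECC, with its SE (vertical axis) for the 9 EMT factors (horizontal axis) from the deposited values, after centring on housekeeping genes or on poly-A controls, and with the mean of all probe sets. Poly-A centring lowers each factor by the same amount, which takes Zeb2, Twist2 and Tcf21 under 0.

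Genes with the most similar pattern were found as those with the smallest Euclidean distance over the 6 arrays after each gene was centred on its mean. For Snai1 they were Bend4 (distance 0.26), Col6a1, a collagen VI chain (0.27), and Fbln2, the matrix protein fibulin 2 (0.29). For Twist1, which had the largest TDECC spread, they were Nnmt, a nicotinamide methyltransferase (0.23), Oaf (0.27) and Map3k7cl (0.29). The 6 points share 2 strains, so any gene with a like difference between strains is near. The spread of the factors within strains was like that of other genes, with a median SD of 0.20 in TDECC and 0.11 in TDESM, against 0.24 and 0.12 over all genes.

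Further factors tied to EMT or to mesenchymal identity split between the strains. Of 19 measured, 8 were higher and 4 lower in TDESM around a median difference of 0.17, while 22.1% of all genes were called higher and 20.6% lower. The 8 were Prrx2, Foxs1, Bnc2, Wt1, Foxf1, Tbx18, Hand2 and Scx, and the 4 were Foxq1, Mecom, Sox4 and Osr2. Prrx2, the paralog of Prrx1, read 5.03, 4.43 and 4.86 in TDECC and 10.44, 10.52 and 10.57 in TDESM, a difference of 5.74 (SE 0.17). Its other probe set differed by 0.27 and did not pass, and with the mean of both the difference was 3.01. Foxs1, a forkhead factor of perivascular cells, differed by 5.46 and Bnc2, a zinc finger factor of fibroblasts, by 5.30.

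The 4 factors that were lower in TDESM, a share of the 19 near that of all genes, included carcinoma genes that can drive EMT. Foxq1, a forkhead factor known as an EMT inducer in carcinoma cells, read 11.70, 11.95 and 12.55 in TDECC and 4.87, 4.99 and 5.01 in TDESM, a difference of -7.11 (SE 0.22, limma adjusted p = 7.24e-07). TDECC thus carried Foxq1 far above any TDESM array, opposite in direction to Snai1 and Zeb1. Mecom (Evi1), a zinc finger oncogene, differed by -5.55 (SE 0.19). Sox4 differed by -2.82 (SE 0.39), and 6 of its 7 probe sets were lower in TDESM, as the one at the dimmest TDECC level did not pass, with a difference of 0.34.

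Of 6 E protein and Id genes, partners of the helix-loop-helix factors, 3 were higher, Tcf3, Id3 and Id4, and 1, Id2, was lower. Among all genes 22.1% were called higher and 20.6% lower. Tcf3, which encodes the E proteins E12 and E47, read 6.32, 5.88 and 6.08 in TDECC and 6.56, 6.56 and 6.99 in TDESM. The groups came near, and the difference of 0.61 (SE 0.18, limma adjusted p = 0.0304) no longer passed without TDECC replicate 2 or 3 or when any 1 TDESM array was left out (adjusted p up to 0.0942), nor with the replicate block (0.0530). It turned to -0.61 centred on the poly-A controls.

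Tcf12, the E protein HEB, stood at 9.16 ± 0.27 (SD, n = 3) in TDECC and 9.43 ± 0.05 in TDESM (limma adjusted p = 0.227). It passed without TDECC replicate 3, at 0.41 (adjusted p = 0.0372), and stood at -0.07 when its probe sets were averaged and at -0.95 under poly-A centring. Id proteins bind E proteins and keep them from DNA. Id3 read 8.80, 6.20 and 7.50 in TDECC and 13.36, 13.41 and 13.44 in TDESM, a difference of 5.90 (SE 0.58), and its TDECC arrays differed widely among themselves. Id1 read 10.99, 11.06 and 8.86 in TDECC and 10.75, 10.88 and 10.78 in TDESM. The difference of 0.50 did not pass (limma adjusted p = 0.528) and turned to -0.22 without TDECC replicate 3. Id2 differed by -1.14 and Id4 by 1.34, a difference that poly-A centring took to 0.12.

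Of 18 co-repressor and chromatin genes tied to EMT factors, 2 were higher and 7 lower in TDESM, beside 22.1% and 20.6% of all genes. Their median difference was -0.40. Leaving out TDESM replicate 1, 2 or 3 in turn left 3 lower each time. Ctbp2, a co-repressor bound by Zeb proteins, read 11.43, 11.05 and 10.86 in TDECC and 9.95, 9.90 and 9.82 in TDESM, a difference of -1.22 (SE 0.17, limma adjusted p = 0.00102). Its paralog Ctbp1 was higher by 0.35 (limma adjusted p = 0.0347), which no longer passed when TDECC replicate 2 or 3 or any 1 TDESM array was left out (adjusted p up to 0.124) or with the replicate block (0.127). Poly-A centring turned it to -0.87. Wtip, a LIM protein of the Ajuba family that binds Snail proteins, was higher by 1.28 (0.06 centred on the poly-A controls). Ajuba was lower by 0.92 and Ezh2, the methyltransferase of Polycomb complex PRC2, by 0.80, but Ajuba did not pass once TDECC replicate 2 was left out (adjusted p = 0.0544), and neither passed once any 1 TDESM array was left out (adjusted p up to 0.0740 and 0.0932).

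Of 15 genes that act on the stability or location of Snail and related proteins, 3 were higher and 10 lower in TDESM, where 22.1% of all genes were higher and 20.6% lower. Their median difference was -0.51. The number of lower genes was 6, 4 and 5 without TDESM replicate 1, 2 and 3, and 5 both under the replicate block and under housekeeping centring. Fbxl14 and Fbxo45, F-box proteins that send Snail and other EMT factors to degradation, differed by -1.02 (SE 0.17) and -1.26 (SE 0.19). Csnk2a1, the catalytic subunit of the kinase CK2, differed by -1.04 (SE 0.13). Pak1, a kinase that phosphorylates Snail, was higher by 1.94 (SE 0.14, limma adjusted p = 4.04e-05), and Lats2, a Hippo pathway kinase, by 0.88. Btrc, the ubiquitin ligase subunit that recognises phosphorylated Snail, was higher by 0.71; averaged over its probe sets the difference was 0.38 and did not pass (adjusted p = 0.0547), as also without TDECC replicate 3 (0.0540) or TDESM replicate 3 (0.0576). Centred on the poly-A controls, Btrc stood at -0.51 and Lats2 at -0.34, and Pak1 at 0.72 without passing. Protein levels were not measured.

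Factors that hold the epithelial state, several of which oppose Zeb and Snail, were mostly lower in TDESM. Of 15 measured 0 were higher and 11 lower, against 22.1% and 20.6% of all genes, and the median difference was -2.05. The 4 not called were Elf5, Foxa1, Foxa3 and Hnf4a, named here after their values were seen. Elf5 (3.42 in TDECC and 3.48 in TDESM), Foxa1 (3.48 and 3.38) and Foxa3 (4.17 and 4.27) were dim in both strains. Hnf4a stood at 5.56 ± 1.94 (SD, n = 3) in TDECC and 4.16 ± 0.21 in TDESM. Klf4 lay just under the adjusted p threshold, and 10 were lower under most alternatives. Esrp1, a splicing regulator of epithelial isoforms, read 10.81, 10.98 and 10.51 in TDECC and 5.12, 5.11 and 5.15 in TDESM, a difference of -5.64 (SE 0.15, limma adjusted p = 3.94e-07). Grhl3, a grainyhead factor of surface epithelia, read 10.47, 10.94 and 11.00 against 4.10, 4.13 and 4.10, a difference of -6.69 (SE 0.16). Elf3, an epithelial ETS factor, differed by -5.80 (SE 0.37). Not all factors called lower were dim in TDESM. There Klf4 had a mean of 9.14, Foxa2 of 8.81, Klf5 of 8.15, Cdx2 of 7.51 and Gata3 of 6.47. Ehf, Grhl1 and Tp63 had TDESM means of 4.34, 4.30 and 4.45. These 8 were named here after their values were seen.

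Genes known as targets of EMT repressors followed the same split. All 23 measured epithelial targets were lower in TDESM, with a median of -4.97, while 20.6% of all genes were called lower. The list was drawn up from textbook epithelial genes, and one strain is carcinoma and the other fibroblastic, so this count describes the strains and tests no effect of the factors. Cdh1 read 12.50, 12.64 and 13.17 in TDECC and 3.36, 3.61 and 3.48 in TDESM, a difference of -9.29 (SE 0.19). A second Cdh1 probe set was under 3 on all arrays and differed by -0.29 without passing (-4.79 with the mean of both). Ocln, the junction protein occludin, differed by -8.07 (SE 0.28), Epcam by -9.68 and the keratin Krt18 by -10.21. The claudins Cldn4 and Cldn3 differed by -7.47 and -6.04, and Crb3, a polarity protein repressed by Zeb1, by -3.66 (SE 0.34). The claudin Cldn7 differed by -4.06 (SE 0.70), and its TDECC arrays lay far apart, at 7.39, 10.22 and 7.60. Not all epithelial targets were dim in TDESM. Jup stood at 11.34 ± 0.17 (SD, n = 3) in TDECC and 10.2 ± 0.02 in TDESM, a difference of -1.14. Dsp stood at 11.79 ± 0.62 and 7.64 ± 0.01. Jup and Dsp were named here after their values were seen.

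Windows at the starts of these genes were searched for the same hexamer. Of 17 epithelial targets with a window 15 (88.2%) held it, beside 18.9% of array genes and 23.2% of the 2720 genes with a window that were called lower. The general E-box CANNTG was in 16 of the 17 (94.1%) and in 65.6% of array genes. The windows of the epithelial targets had a median GC content of 67%, and those of array genes 59.7%. Of 13 mesenchymal targets with a window 2 (15.4%) held the hexamer. The list includes genes picked because such E-boxes are known in their promoters, so the share is a description without a test. Cldn7, the gene with the most matches (5, at -186, -147, -28, -17 and -3), and Ocln (at -137 and -68) are shown with the matches in capitals, chosen after the search as examples of many and of paired matches.
Cldn7, GRCr8 chr10:55188420-55188679, strand +: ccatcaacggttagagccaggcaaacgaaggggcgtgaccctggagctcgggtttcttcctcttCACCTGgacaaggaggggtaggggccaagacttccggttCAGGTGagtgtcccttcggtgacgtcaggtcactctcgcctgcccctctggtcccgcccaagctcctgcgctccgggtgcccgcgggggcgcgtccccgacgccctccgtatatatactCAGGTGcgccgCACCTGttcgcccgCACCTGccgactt
Ocln, GRCr8 chr2:33441189-33441448, strand -: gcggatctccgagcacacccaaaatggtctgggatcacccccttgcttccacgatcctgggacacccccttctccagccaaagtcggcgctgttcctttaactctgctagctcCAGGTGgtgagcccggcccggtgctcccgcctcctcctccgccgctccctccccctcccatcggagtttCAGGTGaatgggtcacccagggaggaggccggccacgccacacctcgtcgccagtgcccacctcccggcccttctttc
Cdh1, Cldn4, Pkp3, Llgl2, St14 and Prss8 among the epithelial targets, and Foxc2 and Snai2, had no entry.

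Of 25 mesenchymal genes associated with EMT, 21 were higher and 0 lower in TDESM, against 22.1% and 20.6% of all genes. Their median difference was 5.74. Vim, vimentin, differed by 6.81 (SE 0.26), Fn1, fibronectin, by 9.67 (SE 0.24), Postn, periostin, by 10.41 and Col1a2 by 10.72. The 4 not called were Cdh2, S100a4, Dcn and Spock1, the last 3 named here after their values were seen. S100a4 was bright in both strains, at 13.72 ± 0.36 (SD, n = 3) in TDECC and 14.15 ± 0.08 in TDESM. Dcn had means of 3.87 in TDECC and 3.67 in TDESM, and Spock1 of 3.33 and 3.39, dim in both. Cdh2 encodes N-cadherin, whose rise is a classic sign of EMT. By its brightest probe set it read 6.70, 6.86 and 6.57 in TDECC and 6.58, 6.45 and 6.57 in TDESM, and the groups overlapped (difference -0.18, limma adjusted p = 0.314). Its other probe sets read 3.56 ± 0.10 and 4.56 ± 0.36 (SD, n = 3) in TDECC and 4.34 ± 0.04 and 5.45 ± 0.15 in TDESM. They were higher by 0.78 and 0.89 in the fit over all probe sets (adjusted p = 0.00140 and 0.0111). With the mean of the 3 probe sets Cdh2 was higher by 0.50 (limma adjusted p = 0.0134). Centred on the poly-A controls, its brightest probe set alone moved from -0.18 to -1.40. No Cdh2 probe set showed a difference as large as that of Vim or Fn1.

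**Figure D4:**
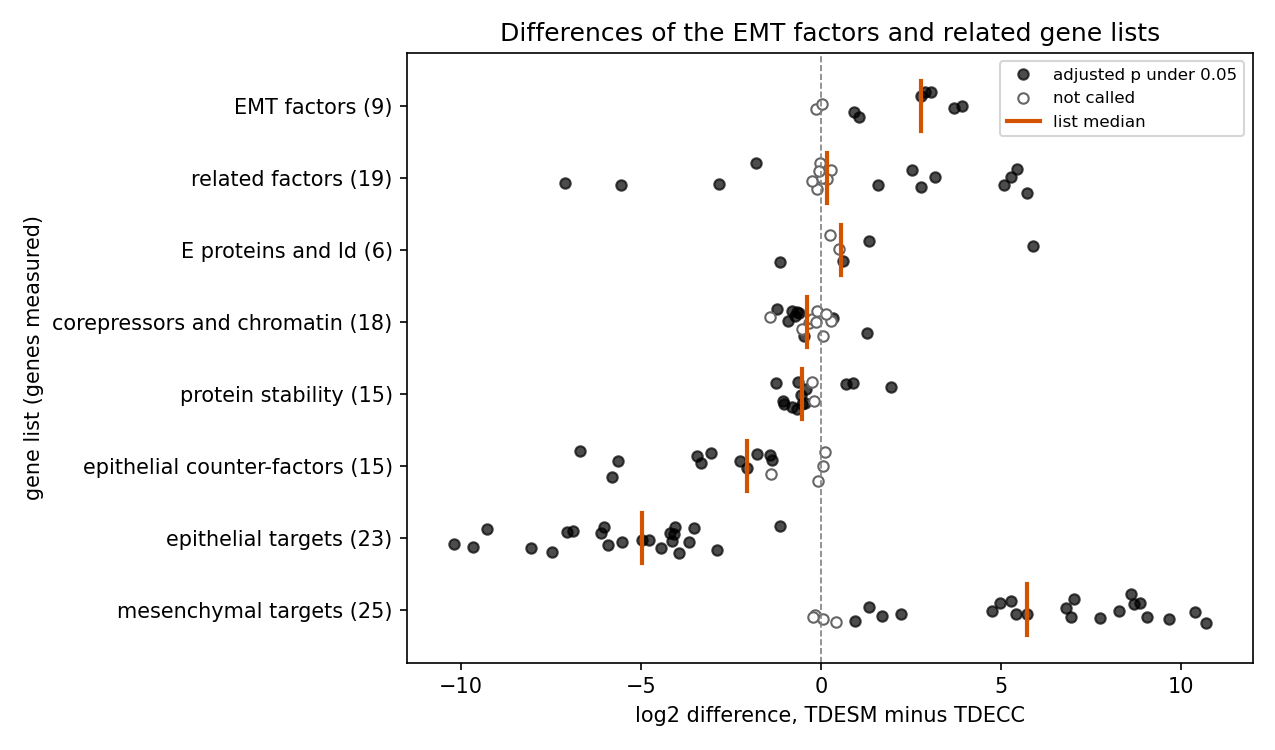
Log2 difference, TDESM minus TDECC (horizontal axis), of each measured gene of the EMT factors and of 7 related gene lists (vertical axis, number of genes in brackets; height within a row is arbitrary), filled where limma's adjusted p was under 0.05, with a line at each list's median. The EMT factors and mesenchymal targets lie mostly to the right and the epithelial targets all to the left of 0.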

How the data were processed

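RNA of 3 TDECC and 3 TDESM samples was hybridised to rat Affymetrix arrays, from biotin-labelled cRNA, per the labels' protocols. The titles gave each sample its group and number. The deposited values are log2 signals, and the submitters' processing notes name RMA as the tool the authors used, without a version. Such scaling removes differences in total mRNA.

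Of 31099 probe sets, 57 were controls, 20826 had 1 gene symbol in the platform annotation, 436 several and 9780 none. The brightest probe set by mean over the 6 arrays stood for a gene, giving 14217 genes. R 4.3.3 with limma 3.58.1 (lmFit, eBayes) gave two-sided tests of TDESM minus TDECC, with p-values adjusted by Benjamini-Hochberg and a threshold of 0.05. A further fit covered 31042 probe sets. The fit was tested on simulated data. Of 198 list symbols 165 were measured. The members, lists and alternatives were chosen with earlier results of these data known. Named genes were all factors, defining genes of each list and up to 3 further each way past the threshold with the largest difference. All called related factors, and the genes so described above, were added after their values were seen. Alternatives were cyclic loess, centring on housekeeping genes or poly-A controls, leaving out the dimmest 33.3%, probe set choice, trend and robust eBayes, a replicate block, a minimum difference and each array left out. The number of arrays limits the precision. Promoter windows are RefSeq's, GRCr8.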

Additional observations from a re-analysis of the deposited data

How the results depend on the processing

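The 7 higher and 0 lower EMT factors, and the 14 higher and 0 lower probe sets, were the counts each time 1 array was left out (7 to 7 and 14 to 14). Leaving out single arrays, the factors differed by 3.78 to 4.0 (Snai1), 2.68 to 3.02 (Twist1), 1.0 to 1.18 (Twist2), 2.89 to 3.23 (Zeb1), 0.74 to 1.08 (Zeb2), 3.60 to 3.78 (Prrx1), 2.67 to 2.87 (Tcf4), -0.20 to -0.07 (Foxc2) and -0.0033 to 0.057 (Tcf21, whose sign turned at -0.0033 without TDESM replicate 1). Single Foxc2 probe sets ran from -0.20 to 0.0017 (1370795_at) and from -0.35 to 0.017 (1375607_at). The gene count ran from 4605 to 6437. Lower co-repressor genes ran from 3 to 8 and higher ones from 1 to 2, and lower stability genes from 4 to 9. Id1 ran from -0.22 to 0.88.

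Centred on the poly-A controls, 11771 genes were called, 898 higher and 10873 lower; 2 factors and 4 of their probe sets were called lower. Twist2 stood at -0.15, Zeb2 at -0.29 (probe sets 1390940_at at -0.55 and 1395130_at at -0.54), Foxc2 at -1.36 and Tcf21 at -1.20. There 11 related factors were lower, 1 E protein or Id gene higher and 2 lower, 0 co-repressors higher and 17 lower, 0 stability genes higher and 4 mesenchymal targets lower. Signs turned for Tcf3 (-0.61), Tcf12 (-0.95), Id1 (-0.72), Ctbp1 (-0.87), Btrc (-0.51), Lats2 (-0.34) and the muscle gene Des (-0.59). Centred on housekeeping genes, Foxc2 stood at 0.044 (other probe sets 0.078 and 0.024) and Cdh2 at 0.0075, with 4 co-repressors and 5 stability genes lower. With the mean of all probe sets 4 co-repressors were lower, Cdh2 stood at 0.50 and Tcf12 at -0.07.

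With a minimum log2 difference of 1, 3623 genes were called, 1906 higher and 1717 lower. Zeb2, at 0.93, dropped out by its brightest probe set. There 1 co-repressor was higher and 1 lower, and 1 stability gene higher and 3 lower. Leaving out the dimmest genes removed Twist2 and Tcf21, so 6 factors were called.

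Deviations of same-numbered arrays correlated at -0.07, 0.02 and -0.14, and not every array correlated best with its own number. With 3 arrays per strain, such values cannot show whether the replicate numbers pair the arrays. With the replicate block 5342 genes, 7 factors and 14 probe sets were called, with 1 co-repressor higher and 5 stability genes lower. The cause of these shifts was not tested beyond what each setting fixes by construction.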
